A study of Gallus gallus with 71 samples.

Results

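HSPA9, C10orf2 and HIGD2A are 3 nuclear genes whose products keep mitochondria in working order. They were found in the table of counts by the Ensembl IDs that the tables of the study pair with these symbols (ENSGALG00010010262, ENSGALG00010018482 and ENSGALG00010014243), which makes 3 genes of 30108, or of the 20363 that were tested. RNA was sequenced from punches of 3 hypothalamic nuclei of Hubbard x Cobb-500 broiler chicks. These were the paraventricular nucleus (PVN), the POAH (pre-optic anterior hypothalamus) and the nCPa (nucleus of the hippocampal commissure). Eggs given embryonic heat conditioning (EHC) were held at 39.5°C for 12 h per day between embryonic days 7 and 16. Otherwise they were at 37.5°C, as control eggs were throughout, until both moved to a cooler hatcher. Chicks of both treatments, of both sexes and kept at 30°C, entered a challenge at 36°C on day 4 after hatch, and were sampled before it (hour 0) and 2 and 12 h after it began. There were 71 libraries, 35 of EHC and 36 of control chicks in 18 groups of nucleus, treatment and hour. Each group had 4 libraries, apart from EHC PVN at hour 12, which had 3. The treatments were incubated in separate incubators before a shared hatcher, and no unchallenged chicks of hours 2 and 12 are among the samples, so the incubator and EHC, and the passing of time and the challenge, cannot be told apart.

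Most proteins of the mitochondrion are encoded in the nucleus and have to be imported and folded, while a small circular genome inside the organelle encodes core subunits of the respiratory chain. HSPA9 (mortalin) is the Hsp70 chaperone of the mitochondrial matrix, which pulls precursor proteins through the inner membrane and helps them to fold. C10orf2 encodes Twinkle, the helicase that unwinds mitochondrial DNA ahead of its polymerase. HIGD2A is a small protein of the inner membrane which, in human cells, takes part in the assembly of cytochrome c oxidase (complex IV) and its supercomplexes. These roles are known mainly from mammals and yeast.

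On GRCg7b, RefSeq genes of the same symbols place HSPA9 on chromosome 13 (2405305 to 2426690), HIGD2A on the same chromosome (10020301 to 10020903) and C10orf2 on chromosome 6 (23871056 to 23874659). The span of HSPA9 overlaps 3 other RefSeq genes. Reads were counted on the Ensembl annotation, and whether this overlap affected the counts of HSPA9 was not tested. The other members overlap no other RefSeq gene. C10orf2 lies 65 bases from MRPL43, which encodes a protein of the mitochondrial ribosome, and HIGD2A lies 190 bases from NOP16.

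All 3 genes were detected in every library. Levels are in CPM (counts as a share of the library, its size adjusted by TMM) and depend on the length of a transcript, so they are compared between libraries and not between genes. HSPA9 averaged 107 ± 22.05 CPM (SD, n = 71; 83 to 1374 counts per library), C10orf2 averaged 12.8 ± 3.38 CPM (6 to 141 counts) and HIGD2A averaged 8.34 ± 3.27 CPM (4 to 110 counts). HSPA9 was the steadiest of the members, with 20.5% of its mean as its SD, against 26.5% for C10orf2 and 39.2% for HIGD2A. It also had the most counts, and the part of counting noise in these values was not tested. Libraries held between 910033 and 9370799 counts (median 4157783). The punches are bulk tissue, in which fewer cells of a type and less RNA per cell cannot be told apart, and markers of neurons, glia, blood and single hypothalamic nuclei were not analysed here.

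**Figure D1:**
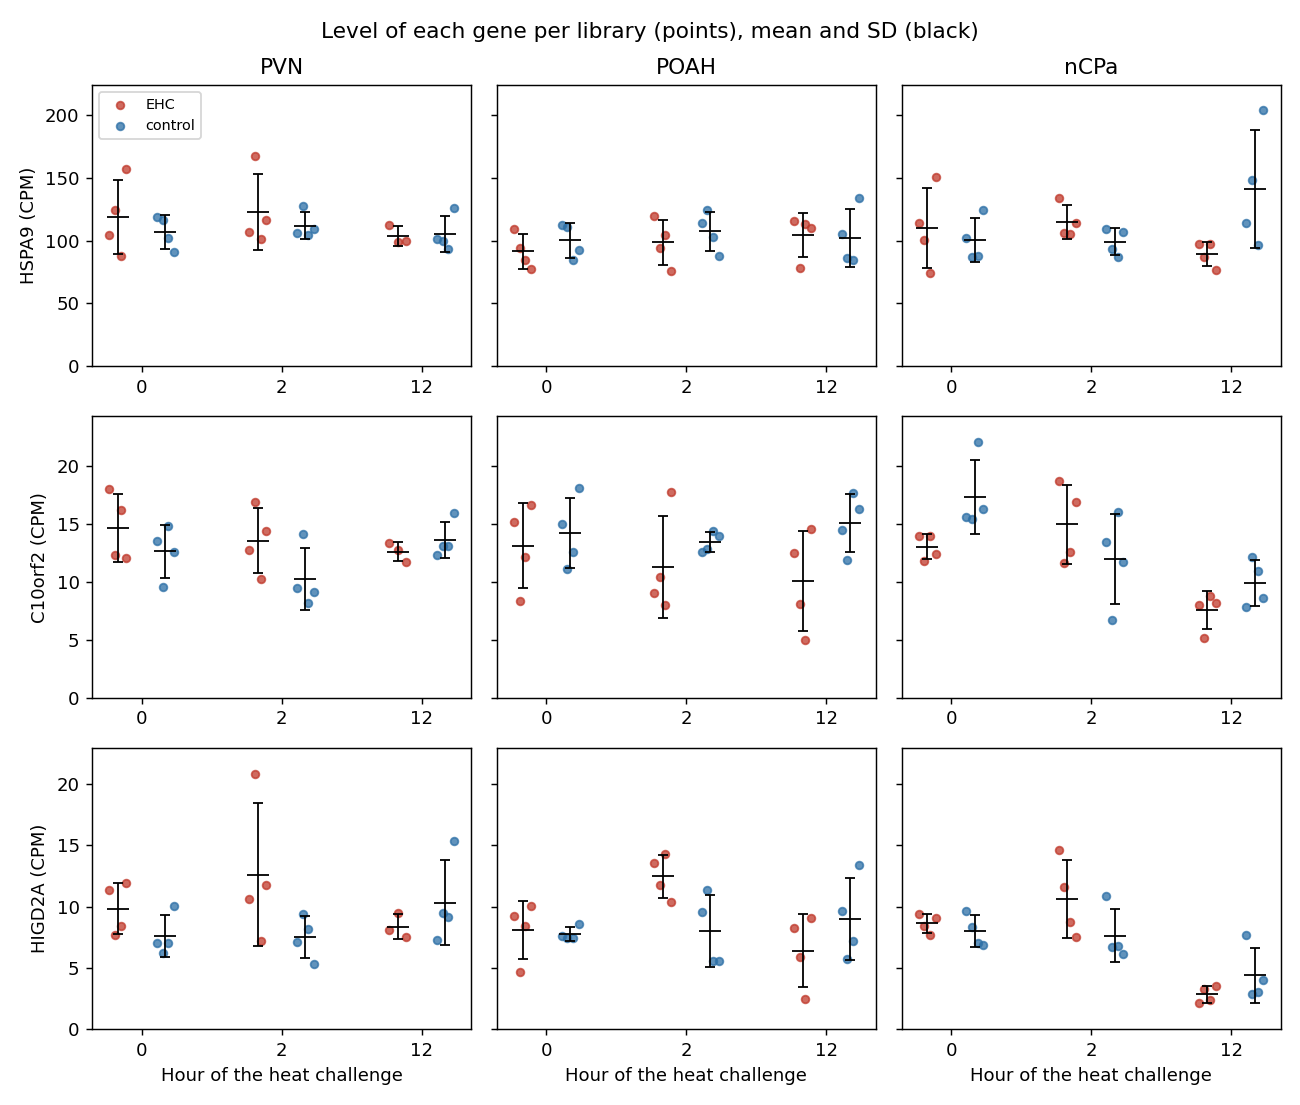
Level in CPM of HSPA9, C10orf2 and HIGD2A (rows) in the PVN, POAH and nCPa (columns) at hours 0, 2 and 12, with 1 point per library (EHC red, control blue) and the mean and SD of each group in black. The group means of HIGD2A and C10orf2 are lowest in the nCPa at hour 12, in both treatments, but some control libraries there overlap those of earlier hours. The HSPA9 values of control nCPa at that hour are spread from 97.0 to 204 CPM.

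HIGD2A and C10orf2 were both low in the nCPa at hour 12. HIGD2A was at 8.32 ± 1.06 CPM in the nCPa at hour 0, 9.12 ± 2.97 CPM at hour 2 and 3.62 ± 1.75 CPM at hour 12 (SD, n = 8 each, both treatments). At hour 12 the EHC libraries held 2.15, 2.35, 3.29 and 3.56 CPM and the control libraries 2.86, 3.03, 4.05 and 7.67 CPM. Except control replicate 1, at 7.67 CPM, every nCPa library of hour 12 lay below the lowest nCPa library of the earlier hours, at 6.13 CPM. C10orf2 was at 15.2 ± 3.19 CPM in the nCPa at hour 0, 13.5 ± 3.76 CPM at hour 2 and 8.73 ± 2.11 CPM at hour 12 (SD, n = 8 each). Its 8 libraries of hour 12 ran from 5.12 to 12.1 CPM and those of hour 0 from 11.9 to 22.1 CPM, so these hours overlapped only at their edges.

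HIGD2A fitted at a log2 fold change of -1.14 (SE 0.22) for hour 12 against hour 0 and -1.23 (SE 0.25) for hour 12 against hour 2. For C10orf2 the values were -0.77 (SE 0.17) against hour 0 and -0.64 (SE 0.19) against hour 2. The study listed HIGD2A for both of these comparisons and C10orf2 for hour 12 against hour 0, so these values describe the genes and are no independent evidence for them. None of the 4 values passed an adjusted p of 0.1 when edgeR was fitted to the hours compared (adjusted p = 0.12 and 0.16 for HIGD2A, 0.15 and 0.33 for C10orf2), where 0.0246% of all genes passed for hour 12 against hour 0 and 0.00491% for hour 12 against hour 2. All 4 passed with the nCPa libraries of all hours in 1 model (adjusted p = 0.023 and 0.0058 for HIGD2A, 0.036 and 0.082 for C10orf2), where 0.599% and 0.555% of genes passed. They also passed in DESeq2, where 1.38% and 0.941% passed. Without control replicate 1 of hour 12, the library with 7.67 CPM, both HIGD2A values passed (-1.41, adjusted p = 0.014, and -1.47, adjusted p = 0.070, edgeR), beside 0.383% and 0.0147% of all genes. This library held the highest HIGD2A of the nCPa at hour 12, so leaving it out was bound to widen the difference. Of 16 fits per comparison that each left out 1 library, it was the only 1 that passed (adjusted p up to 0.25 and 0.35 in the others, edgeR). With treatment added to the model, C10orf2 passed against hour 0 (adjusted p = 0.085, edgeR), where 0.0589% of genes did. In EHC libraries alone the HIGD2A values were -1.57 and -1.76, and in control libraries alone -0.85 and -0.79. The C10orf2 values were -0.80 and -0.99 in EHC libraries and -0.78 and -0.36 in control libraries, and neither gene passed in either treatment alone.

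In the POAH and PVN no member passed between hours, and none of these comparisons reached an unadjusted p of 0.05 for a member. In each of them 0% of all genes passed (edgeR), so this says nothing particular about the members. HIGD2A was at 7.93 ± 1.59, 10.2 ± 3.27 and 7.71 ± 3.24 CPM in the POAH at hours 0, 2 and 12, and at 8.72 ± 2.15, 10.1 ± 4.82 and 9.49 ± 2.74 CPM in the PVN (SD, n = 8 each, 7 in the PVN at hour 12). C10orf2 kept between 11.9 and 13.7 CPM on average in these nuclei at every hour. Single libraries could be as low as those of the nCPa at hour 12. EHC replicate 3 of the POAH at hour 12 held 2.49 CPM of HIGD2A. It held 4.98 CPM of C10orf2, the lowest of all 71 libraries. HSPA9 averaged between 95.98 and 118 CPM in all 9 sets of nucleus and hour.

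The nuclei can also be set against each other at hour 12. The nCPa libraries of that hour are the ones in which the study listed HIGD2A and C10orf2 as low, so each comparison of them with another nucleus reuses the values that chose these genes. Its p-values are too small for that reason and describe the libraries, with no independent evidence for the genes. At hour 12 HIGD2A was 2.59-fold higher in the PVN than in the nCPa (9.49 ± 2.74 CPM, n = 7, against 3.62 ± 1.75 CPM, n = 8; log2 fold change 1.37, SE 0.23, adjusted p = 0.00041, edgeR with all libraries in 1 model). It was 2.13-fold higher in the POAH than in the nCPa (7.71 ± 3.24 CPM against 3.62 ± 1.75 CPM; log2 fold change 1.09, SE 0.23, adjusted p = 0.0047, edgeR). C10orf2 was 1.52-fold higher in the PVN (13.2 ± 1.32 CPM against 8.73 ± 2.11 CPM; adjusted p = 0.062, edgeR) and 1.43-fold higher in the POAH (12.6 ± 4.24 CPM against 8.73 ± 2.11 CPM; adjusted p = 0.080, edgeR) than in the nCPa. At this hour 3.48% of all genes differed between the PVN and nCPa and 5.90% between the POAH and nCPa. The comparison by hour was added after the data had been seen, and the 3 nuclei came from the same chicks.

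At hours 0 and 2 no member passed between these nuclei (adjusted p of at least 0.56, edgeR), while 0.0835% and 1.13% of genes did between the PVN and nCPa and 0% at both hours between the POAH and nCPa. HIGD2A stayed past the threshold at hour 12 under each of 9 other settings and without each of the 8 nCPa libraries of that hour, also with only the libraries of hour 12 and the inferred chick as a block (adjusted p = 0.066 for the PVN and 0.064 for the POAH, edgeR). C10orf2 passed for the PVN under 7 of these 9 settings and for the POAH under 5 of 9. It did not pass for either with only the libraries of hour 12 (adjusted p = 0.16 and 0.20, edgeR), nor without EHC replicate 2 of the nCPa (adjusted p = 0.17 and 0.23, edgeR). For the POAH it also missed the threshold without EHC replicate 1 or 4 or control replicate 1 or 4 of the nCPa (adjusted p from 0.11 to 0.13, edgeR). The change over time itself, hour 12 against hour 0, was tested between nuclei and did not pass. The nCPa change minus the PVN change was -1.32 on the log2 scale for HIGD2A (SE 0.30, adjusted p = 0.14, edgeR) and -0.74 for C10orf2 (SE 0.24, adjusted p = 0.68, edgeR), and 0.0344% of genes passed this test. The nCPa change minus the POAH change was -1.13 for HIGD2A (SE 0.30, adjusted p = 0.48, edgeR) and -0.64 for C10orf2 (SE 0.23, adjusted p = 0.75, edgeR), and 0% of genes passed. For hour 12 against hour 2 no member passed either (adjusted p from 0.18 to 0.97, edgeR), beside 0.108% of genes for the PVN and 0.0540% for the POAH.

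**Figure D2:**
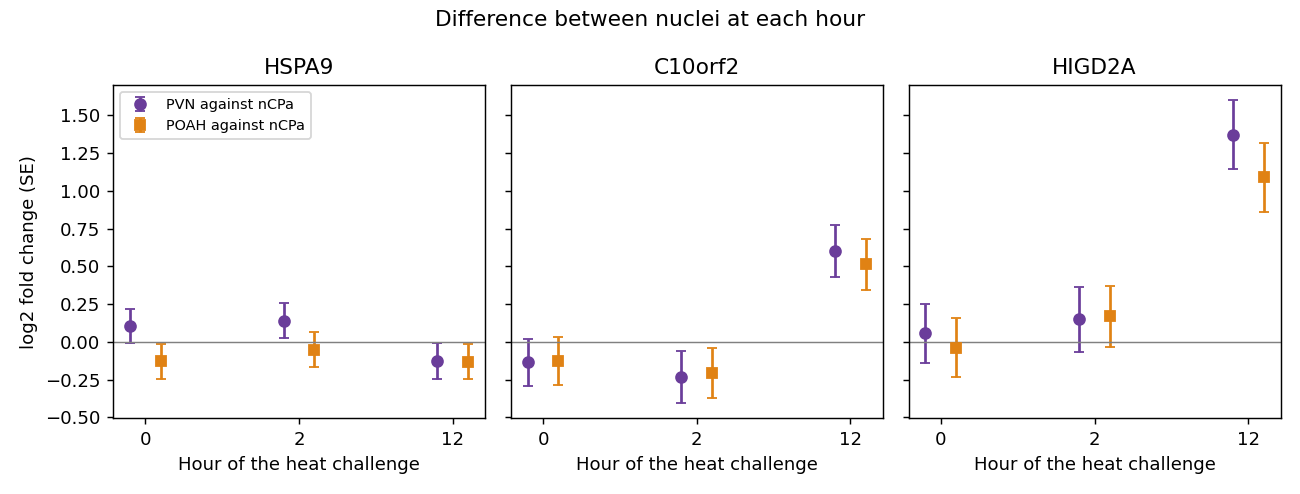
Log2 fold change of the PVN (circles) and the POAH (squares) against the nCPa at hours 0, 2 and 12 for each gene, averaged over treatments in 1 model of all 71 libraries, with bars for the SE. HIGD2A reaches 1.37 and 1.09 at hour 12 and lies near 0 before, C10orf2 reaches 0.60 and 0.51, and HSPA9 stays between -0.13 and 0.14.

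Messages encoded by the mitochondrial genome, of which 11 could be named, varied widely in the nCPa at hour 12. They took up 1.18% to 1.86% of counts in the 4 EHC libraries and 0.919%, 4.08%, 5.95% and 6.82% in the 4 control libraries, against medians of 0.843% to 1.28% in the other groups. Among these 4 control libraries the one with the lowest share, replicate 1, was the one with the highest HIGD2A. The 4 EHC libraries of the nCPa at hour 12, also with low shares, held 2.15 to 3.56 CPM of HIGD2A. The highest HIGD2A of all 71 libraries, 20.9 CPM, was in EHC replicate 2 of the PVN at hour 2, with a share of 2.46%. A link between the share and HIGD2A was not tested. Against the nCPa at hour 12, 10 of the 11 messages passed as lower in the PVN (median log2 fold change -1.66) and 10 of 11 in the POAH (median -1.62), where the medians over all genes were 0.02 and 0.03. Most of these messages could be named only because the study listed them as changed in the nCPa at hour 12, so these counts are a description. With library sizes computed without these genes HIGD2A was at a log2 fold change of 1.35 for the PVN and 1.08 for the POAH at hour 12, and still passed (edgeR). The 4 EHC libraries were also shallower, with 1956210 to 3401720 counts against 4681630 to 5130980 in control, and HIGD2A rested on 4 to 13 counts in EHC libraries and 12 to 36 in control libraries. Of 3 genes marking meninges or choroid plexus (MGP, MFAP5 and SERPINF1), 0 passed as higher in the PVN and 1 in the POAH than in the nCPa at hour 12. Their summed level at that hour was 48.4 to 61.3 CPM in EHC and 30.3 to 49.8 CPM in control PVN, 38.4 to 84.1 and 40.4 to 266 CPM in the POAH, and 17.8 to 47.6 and 34.8 to 56.5 CPM in the nCPa. The part of these markers, of depth and of the mitochondrial share in these values was not tested otherwise.

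Averaged over the hours, HIGD2A was the only member that passed between nuclei. It was 1.38-fold higher in the PVN (9.43 ± 3.35 CPM, n = 23) than in the nCPa (7.02 ± 3.18 CPM, n = 24), or 0.46 on the log2 scale (SE 0.13, adjusted p = 0.012, edgeR), in a comparison where 22.2% of genes passed and which holds the same nCPa libraries of hour 12. In the POAH it was at 8.63 ± 2.93 CPM (n = 24), 0.33 above the nCPa on the log2 scale (SE 0.13, adjusted p = 0.14, edgeR), where 7.88% of genes passed. The order of the means was PVN, POAH, nCPa, and the POAH did not pass against either neighbour. HSPA9 averaged 112 ± 19.3 CPM in the PVN and 101 ± 16.2 CPM in the POAH, a difference of 0.14 on the log2 scale (SE 0.07, adjusted p = 0.22, edgeR), with 10.0% of genes past the threshold. It was at 109 ± 28.1 CPM in the nCPa. C10orf2 was at 12.9 ± 2.52, 12.9 ± 3.45 and 12.5 ± 4.07 CPM in the PVN, POAH and nCPa.

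HSPA9 was the member listed by the study for EHC against control chicks, in the nCPa at hour 12, so its values there are a description. It was at 77.1, 87.5, 97.1 and 97.1 CPM in EHC libraries, against 97.0, 114, 149 and 204 CPM in control libraries. The groups touched at 97 CPM, and the spread was wide in control chicks (EHC mean 89.7 ± 9.57 CPM, control mean 141 ± 47.1 CPM, SD, n = 4 each). On the log2 scale EHC libraries lay at -0.66 from control (SE 0.23, adjusted p = 0.35, edgeR), and 0.00982% of genes passed. It was -0.37 (adjusted p = 0.59, edgeR) without control replicate 4, the library with 204 CPM and with 6.82% of counts in mitochondrial messages. Messages of the mitochondrial genome lay lower in EHC chicks for all 11 (median log2 fold change -2.29), as did those of 8 nuclear genes for subunits or assembly factors of complex I (median -1.20) and DNAJC15, a cochaperone of the import motor (-1.33), with a median over all genes of -0.01, but none of them passed in edgeR. Most of these genes have a symbol here only because the study listed them as lower in this same comparison, so their shared direction came with the choice and is no evidence of its own. EHC libraries of HSPA9 in the POAH held 78.0 to 116 CPM at this hour and control libraries 84.7 to 134 CPM, and in the PVN they held 99.2 to 113 CPM, against 93.2 to 126 CPM in control libraries.

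The HIGD2A mean was higher in EHC than control chicks at hours 0 and 2, and lower at hour 12, in all 3 nuclei. The nuclei came from the same chicks, and no value passed. At hour 0 the means were 8.65 ± 0.78 CPM (EHC) and 7.98 ± 1.31 CPM (control) in the nCPa. They were 8.09 ± 2.36 and 7.77 ± 0.54 CPM in the POAH, and 9.84 ± 2.10 and 7.59 ± 1.71 CPM in the PVN. At hour 2 the POAH held 10.4, 11.7, 13.5 and 14.3 CPM in EHC libraries, against 5.53, 5.59, 9.59 and 11.3 CPM in control libraries. Only the highest control library lay above the lowest EHC library (log2 fold change 0.69, SE 0.26, adjusted p = 0.48, edgeR, with 0.00491% of genes past the threshold). These EHC libraries were shallower, with 1370530 to 3173830 counts against 4888020 to 6099030 in control. HIGD2A rested on 14 to 39 counts in them and on 30 to 67 in control libraries. EHC replicate 4 of this group also held 1385 CPM of the summed meninges markers, and the part of depth or markers was not tested. The PVN held 7.23, 10.6, 11.8 and 20.9 CPM in EHC libraries at hour 2, against 5.36, 7.11, 8.21 and 9.43 CPM in control libraries (log2 fold change 0.77, SE 0.34, adjusted p = 0.73, edgeR, with 0% of genes past it). This value was 0.50 without EHC replicate 2, the library with 20.9 CPM, and 1.16 without the libraries of contradicted sex label (adjusted p = 0.84 and 0.18, edgeR). The PVN values of hour 2 rested on 12 to 110 counts in EHC libraries and 9 to 14 in control libraries. In the nCPa at hour 2 the EHC libraries ran from 7.56 to 14.6 CPM and the control libraries from 6.13 to 10.8 CPM. Female-limited expression went against the sex label in the EHC libraries of hour 2 with 13.5 (POAH), 10.6 (PVN) and 14.6 CPM (nCPa). It also did in the control libraries of that hour with 5.59 (POAH) and 8.21 CPM (PVN). Whether the treatment labels of these libraries are right was not tested. At hour 12 the means were 2.84 ± 0.69 CPM (EHC) and 4.40 ± 2.24 CPM (control) in the nCPa, 6.43 ± 2.96 and 9.001 ± 3.37 CPM in the POAH, and 8.38 ± 0.9987 (n = 3) and 10.3 ± 3.49 CPM in the PVN. All of these groups overlapped.

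**Figure D3:**
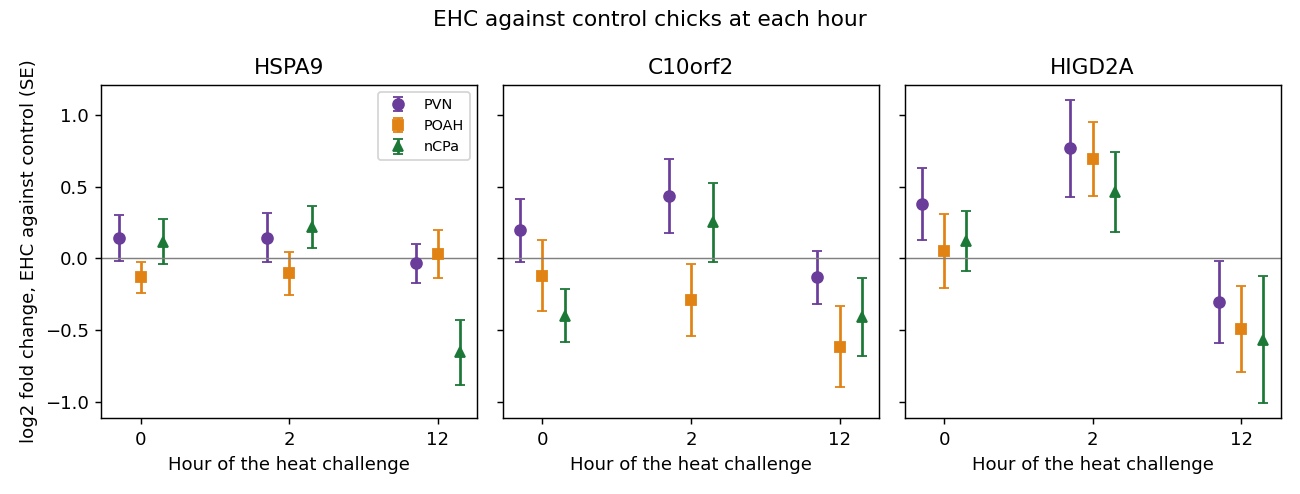
Log2 fold change of EHC against control chicks at hours 0, 2 and 12 in the PVN (circles), POAH (squares) and nCPa (triangles), with bars for the SE. HIGD2A lies above 0 in every nucleus at hours 0 and 2 and below 0 in every nucleus at hour 12. HSPA9 is at -0.66 in the nCPa at hour 12, and no value passed an adjusted p of 0.1 in edgeR.

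The change between hours 2 and 12 was compared between treatments. For HIGD2A the EHC change minus the control change was -1.003 on the log2 scale in the nCPa (SE 0.42, adjusted p = 0.33), -1.18 in the POAH (SE 0.44, adjusted p = 0.25) and -1.24 in the PVN (SE 0.45, adjusted p = 0.30), all from edgeR. None passed, in tests where 0.157%, 0.349% and 0.133% of genes did. The counts of the nuclei were then summed over sets of 3 libraries, taken as chicks from consecutive library names once the data had been seen. This gave 25 sets, although no nucleus had more than 24 libraries, and 22 sets held all 3 nuclei. In 1 of the 22, a control set of hour 2, the female-limited expression was that of a male in the POAH and PVN and that of a female in the nCPa, so these libraries cannot come from 1 chick and the sets are not certain. In these sums HIGD2A averaged 8.93 ± 0.88 CPM for EHC chicks and 7.67 ± 0.93 CPM for control chicks at hour 0 (n = 4 and 3), 12.2 ± 3.31 and 7.74 ± 2.21 CPM at hour 2 (n = 4 each), and 6.94 ± 1.30 and 8.19 ± 1.83 CPM at hour 12 (n = 3 and 4). The EHC change minus the control change between hours 2 and 12 was -0.97 (SE 0.27, adjusted p = 0.13, edgeR), in a test that 1.25% of genes passed, and it was -0.95 (adjusted p = 0.19, edgeR) without this set and an EHC set of hour 2 whose libraries all went against their sex label. For hour 12 against hour 0 it was -0.48 over the 22 sets (SE 0.28, edgeR) and did not pass, and 0% of genes did. Counts were summed as they were, so a nucleus with a deeper library weighed more in its sum. The nCPa at hour 12 had the lowest HIGD2A means, and its libraries held 1956210 to 3401720 counts in EHC and 4681630 to 5130980 in control. The part of this weighting in the summed values was not tested.

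**Figure D4:**
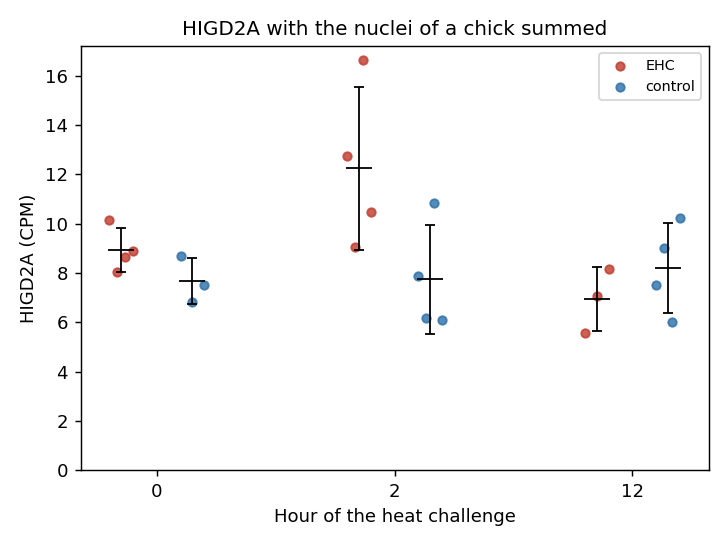
HIGD2A in CPM after the counts of the 3 nuclei were summed for each of 22 sets taken as chicks, by hour and treatment, with 1 point per set (EHC red, control blue) and the mean and SD in black. EHC chicks average 12.2 CPM at hour 2 and control chicks 7.74 CPM, and at hour 12 they average 6.94 and 8.19 CPM.

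For HSPA9 the same measure reached an unadjusted p of 0.05 in the nCPa. The study listed HSPA9 as lower in EHC chicks in the nCPa at hour 12. The HSPA9 values below reuse those libraries, so they are a description and no independent evidence. At that hour EHC lay at -0.66 from control on the log2 scale, and at -0.37 without control replicate 4. In the nCPa the EHC change minus the control change was -0.79 for hour 12 against hour 0 (SE 0.27, adjusted p = 0.26, edgeR, with 0.147% of genes past the threshold) and -0.88 for hour 12 against hour 2 (SE 0.28, adjusted p = 0.21, edgeR). Tested against the other nuclei, the second value lay lower in the nCPa than in the POAH by 1.03 (SE 0.33, adjusted p = 0.22, edgeR) and than in the PVN by 0.68 (SE 0.33, adjusted p = 0.38, edgeR), so a difference between nuclei was not shown. C10orf2 had 1 such value at an unadjusted p under 0.05, 0.64 for hour 2 against hour 0 in the nCPa (SE 0.30, adjusted p = 0.67, edgeR, with 0% of genes past the threshold). It was at 11.9, 12.4, 13.94 and 13.96 CPM in EHC libraries of the nCPa at hour 0, all below the 15.4, 15.6, 16.3 and 22.1 CPM of control libraries. EHC against control at hour 0 did not pass for it (adjusted p = 0.91, edgeR), and 0% of genes did. At hour 2 C10orf2 was at 11.6 to 18.8 CPM in EHC libraries and 6.73 to 16.0 CPM in control libraries. The library with 6.73 CPM held 6 counts of C10orf2 and was the shallowest of the series (910033 counts). Under 8 other settings the value of 0.64 lay between 0.49 and 0.67. In the POAH at hour 12 C10orf2 was at 4.98, 8.12, 12.5 and 14.6 CPM in EHC libraries and 11.9, 14.5, 16.3 and 17.7 CPM in control libraries. Over the 3 hours together no member passed between treatments in any nucleus (adjusted p of at least 0.80, edgeR), and 0% of all genes did in each.

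HSPA9 was lower in females than in males of the POAH. It was at 76.2 to 114 CPM in libraries labelled female (median 85.4, mean 89.5 ± 11.9, SD, n = 12) and at 94.2 to 134 CPM in those labelled male (median 112, mean 112 ± 11.3, n = 12), so the sexes overlapped. Females were 0.80-fold of males (adjusted p = 0.018, edgeR), in a comparison where 10.6% of genes passed. The fold change kept its direction and passed under each of 7 other settings, also without the 5 libraries of hour 2 whose female-limited expression went against the sex label (adjusted p = 0.038, edgeR). In the same comparison all 11 mitochondrial messages lay lower in females, with 7 of 11 past the threshold and a median of -0.44 on the log2 scale, and all 8 complex I genes did, with a median of -0.37 and 4 of 8 past it, against a median of 0.03 over all genes. NDUFA9, a subunit of complex I, was one of them at -0.25 (SE 0.06, adjusted p = 0.021, edgeR). The direction was not particular to the POAH. In the nCPa 11 of 11 mitochondrial messages and 7 of 8 complex I genes lay lower in females, and in the PVN 11 of 11 and 8 of 8. In these 2 nuclei 0 of them passed.

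HSPA9 was at 102 ± 34.0 CPM in females and 116 ± 19.7 CPM in males in the nCPa, and at 105 ± 13.0 CPM in females and 118 ± 22.4 CPM in males in the PVN, and neither passed (adjusted p = 0.29 and 0.40, edgeR). The sex difference in the POAH was not shown to be larger than in the nCPa or in the PVN (adjusted p of at least 0.9997 for both differences, edgeR, with 0% of genes past the threshold in either). HIGD2A was at 7.62 ± 3.03 CPM in females and 9.64 ± 2.57 CPM in males of the POAH (adjusted p = 0.22, edgeR). With the nuclei summed over the sets taken as chicks, HSPA9 was lower in females at a value of -0.23 on the log2 scale (SE 0.08, adjusted p = 0.074, edgeR) and HIGD2A at -0.32 (SE 0.11, adjusted p = 0.086, edgeR), in a test that 15.4% of genes passed. In this test 11 of 11 mitochondrial messages and 8 of 8 complex I genes lay lower in females. Of these, 0 of 11 and 1 of 8 passed. Without the 2 sets of contradicted sex label, 1 of which mixed sexes, the HSPA9 and HIGD2A values were -0.25 (adjusted p = 0.087, edgeR) and -0.31 (adjusted p = 0.13, edgeR), and 13.4% of genes passed. C10orf2 did not pass by sex in any nucleus (adjusted p from 0.70 to 0.98, edgeR), where 5.04% to 10.6% of genes did. Its means were 12.3 to 13.2 CPM in both sexes of the 3 nuclei.

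**Figure D5:**
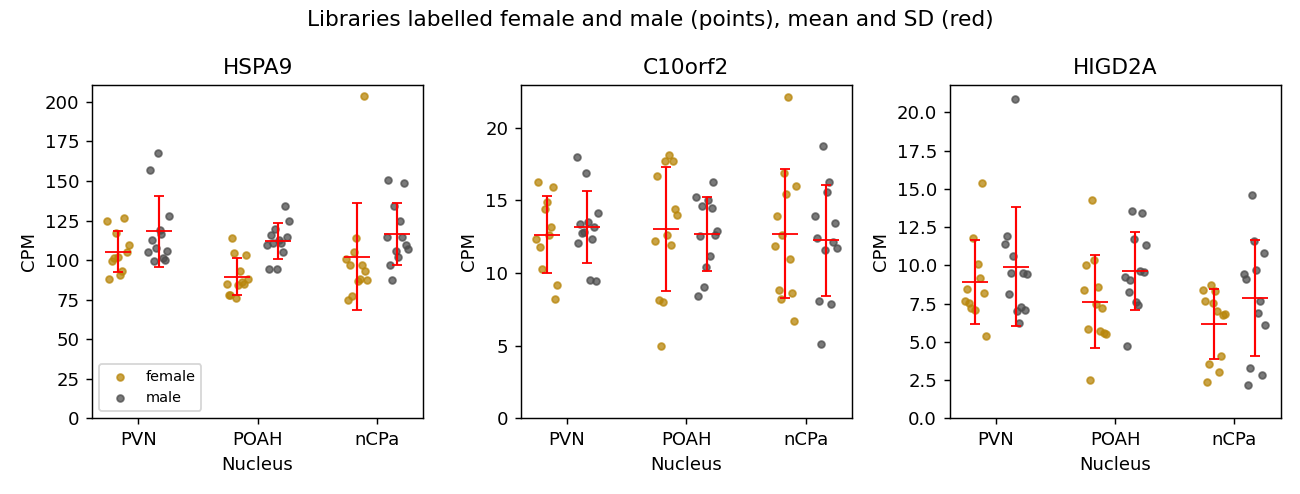
Level in CPM of each gene in libraries labelled female (gold) and male (grey) of the PVN, POAH and nCPa, with 1 point per library over all hours and treatments and the mean and SD in red. HSPA9 in the POAH averages 89.5 CPM in females and 112 CPM in males, while C10orf2 has nearly equal means.

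The members did not form 1 pattern. Over the means of the 18 groups, C10orf2 and HIGD2A had a Pearson correlation of 0.70, HSPA9 and HIGD2A one of 0.11, and HSPA9 and C10orf2 one of 0.10. Within groups, over 71 libraries, the values were 0.33, 0.30 and -0.03 in the same order. Among 10835 genes with a mean of at least 10 CPM, C10orf2 was only at rank 139 for likeness to HIGD2A over the 18 groups. The genes most like HIGD2A were ENSGALG00010027359 (Pearson correlation 0.92) and ENSGALG00010000086 (0.91), followed at rank 4 by YIPF5 (0.86). Those most like C10orf2 were ENSGALG00010005984 and ENSGALG00010005376 (0.86 each). Those most like HSPA9 were ENSGALG00010024814 and ENSGALG00010018727 (0.91 each), and its best match with a symbol, picked after the values were seen, was NDUFA9 at rank 9 (0.84). These correlations are descriptions over groups that share chicks and library depth. The study listed HIGD2A, C10orf2, ENSGALG00010027359 and YIPF5 all as low in the nCPa at hour 12. It listed HSPA9 and NDUFA9 both as lower in EHC chicks there. These listings bear on the likeness of the genes.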

How the data were processed

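Counts of 71 libraries were analysed for HSPA9, C10orf2 and HIGD2A. The authors made stranded total RNA libraries after removal of ribosomal RNA, trimmed reads with Trimmomatic 0.39, aligned them with HISAT2, retained reads with a single match using SAMtools 1.10, took out duplicates and counted the rest per Ensembl gene with featureCounts. The deposited values are whole-number counts, not normalized, for 30108 genes. Fold changes, adjusted p-values and CPM were computed here. Removal of duplicates can lower the counts of highly expressed genes.

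Genes with more than 1 CPM in at least 4 libraries were kept (20363). edgeR 4.0.16 (R 4.3.3, TMM, quasi-likelihood F test, sex as labelled as a covariate) was fitted across all genes, with Benjamini-Hochberg adjustment over them and 0.1 as the highest adjusted p that passed. SE is the size of a log2 fold change over the square root of F. Within a nucleus, treatments were compared per hour and over the hours, hours over both treatments, and the changes over hours between treatments. Sexes and nuclei were compared over all hours. DESeq2 1.42.0, other scalings and filters, other models and left-out libraries were the alternatives. A model of all 71 libraries and sums of the nuclei per inferred chick were added after the data had been seen. Chicks are not named in the labels. p-values between nuclei therefore treat punches of 1 chick as separate samples unless a block is named. Log2 fold changes are given for members at an unadjusted p of at most 0.05 and for the comparisons that the study listed them in. Some others are given beside these. The members and gene lists were chosen with earlier results of these data known, and a gene could be named only where the study listed it as changed. Symbols came from 93 pairs in the tables of the study, so 11 of 13 mitochondrial messages, 8 of 8 chosen complex I genes, 2 of 13 mitochondrial chaperones, 1 of 10 genes of mitochondrial DNA upkeep and 1 of 15 of complex IV assembly could be matched, and heat-inducible chaperones were not analysed here.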

Additional observations from a re-analysis of the deposited data

Results flagged for a closer look

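The 3 genes were looked at in each group of 4 libraries, which made 51 tests. In 3 of them 1 library lay far from the others. Chance alone gives about 1 in 20, so this number is what chance would give. HSPA9 was at 78.0 CPM in replicate 2 of EHC POAH at hour 12 and at 110.6 to 116 CPM in the other 3. C10orf2 was at 22.1 CPM in replicate 3 of control nCPa at hour 0 and at 15.4 to 16.3 CPM in the other 3. HIGD2A was at 10.8 CPM in replicate 1 of control nCPa at hour 2 and at 6.13 to 6.80 CPM in the other 3.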

How the results depend on the processing

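The count of members called between hours was 0 of 27 tests, with 4 at an unadjusted p of at most 0.05. It was 4 in DESeq2, 4 with all libraries of the nucleus in 1 model and 1 with treatment added to the model, and 0 to 2 when 1 nCPa library was left out. The counts for EHC against control (0 of 27), EHC against control over the hours (0 of 9), treatment by hour (0 of 27), sex (1 of 9) and nuclei (1 of 9) were the same under every alternative run. Unadjusted p-values of at most 0.05 were found in 3, 0, 6, 1 and 3 of these tests, and DESeq2 called 0, 0, 0, 1 and 1. Of 312 values of named members under alternatives, 0 changed direction, 11 newly passed, all of them HIGD2A or C10orf2 between hours in the nCPa, and 12 no longer passed, all of them C10orf2 between nuclei at hour 12. The cause was not tested. Leaving out 1 library at a time gave HSPA9 log2 fold changes for EHC against control in the nCPa at hour 12 between -0.80 and -0.37. No paired analysis was possible from the labels because they do not name the chick. With the chick inferred from library names as a block, HIGD2A was 0.45 higher on the log2 scale in the PVN than in the nCPa (adjusted p = 0.019, edgeR). This comparison holds the nCPa libraries of hour 12 in which the study listed HIGD2A as low, so it is no independent evidence. By hour, without the block, the values were 0.06 at hour 0, 0.15 at hour 2 and 1.37 at hour 12. Low counts of HIGD2A (4 to 110 per library) and C10orf2 (6 to 141) limit what could be detected.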
